A study of Mus musculus with 2 samples.

Results

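The microRNA genes Mir34a, Mir34b, Mir34c, Mir449a, Mir449b and Mir449c form the Mir34 and Mir449 family, whose members are known to share a seed. They were picked by gene symbol, and all 6 have a row among the 1973 microRNA genes of the count tables. The tables come from microRNA sequencing of total RNA, labelled with a size range below 30 nt, taken from mouse hindbrain (strain B6NCrl) on the day of birth, postnatal day 0. The 2 libraries form 1 group and come from separate animals, pup 3 and pup 1, with 1 whole hindbrain each. No mutant, treatment or second tissue is in the series, the sex was not collected, and both labels name the same donor entry. Nothing but microRNA genes was counted, so protein markers of multiciliated cells were not measured, and the family is described here as a seed family.

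MicroRNAs are short RNAs, cut from hairpin precursors, that guide Argonaute proteins to messenger RNAs. Pairing depends mostly on the seed, bases 2 to 8 of the mature strand, so microRNAs with one seed have overlapping targets. In mice, Mir34b, Mir34c and the Mir449 genes are known from multiciliated cells, such as the ependymal cells that line the ventricles and the epithelia of airway and oviduct. They act there redundantly in the building of motile cilia. Mir34a is known as a target of the transcription factor p53 and is expressed more broadly.

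The mature sequences show what the members share. RefSeq entries for GRCm38.p6 gave a 5′ strand for 4 members, printed 5′ to 3′ with the seed in capitals. miR-34c-5p and Mir449b are named only.
mmu-miR-34a-5p: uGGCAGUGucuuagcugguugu
mmu-miR-34b-5p: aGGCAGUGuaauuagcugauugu
mmu-miR-449a-5p: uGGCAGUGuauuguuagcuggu
mmu-miR-449c-5p: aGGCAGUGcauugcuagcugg
All 4 carry the seed GGCAGUG. Of 1738 mature entries in the RefSeq table, these 4 alone have GGCAGUG at bases 2 to 8, while 8 hold it at any position. That table has no entry for miR-34c-5p or Mir449b, so neither could be counted. The hairpin of Mir34c does hold GGCAGUG, starting at base 14. Compared without gaps from the 5′ end, miR-449a-5p and miR-449c-5p matched at 18 of 21 positions, miR-34a-5p and miR-449a-5p at 15 of 22, and miR-34b-5p and miR-449a-5p at 10 of 22. No stretch longer than 9 nt was shared by any 2 of the 4.

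The 3′ strands of the hairpins do not share one seed. The 3′ strands of Mir34b and Mir34c are shown because they are the closest pair among the 5 such entries, with one seed and 17 of 22 positions in common.
mmu-miR-34b-3p: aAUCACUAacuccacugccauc
mmu-miR-34c-3p: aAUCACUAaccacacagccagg
The seeds of miR-34a-3p, miR-449a-3p and miR-449c-3p differ from this one and from each other. Searched against all mouse microRNA precursors on both strands, none of the 6 precursors shares 20 nt with another locus. The tables were taken to hold single-locus reads only, and by this search full-length reads of the 6 genes would map to a single microRNA locus.

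The 6 genes lie at 3 loci of assembly mm10, by GENCODE M21. Mir449c, Mir449b and Mir449a follow each other over 1642 bp of chromosome 13 in an intron of Cdc20b, on the strand of that gene (positions 113035983 to 113036091, 113037419 to 113037498 and 113037534 to 113037624, plus strand). Other protein-coding genes within 100 kb of Mir449a are Gpx8 at 5.1 kb, Mcidas at 37.1 kb, Ccno at 46.8 kb, Gzma at 56.2 kb and Dhx29 at 68.1 kb. Of these, Mcidas and Ccno encode proteins known to act in the formation of multiciliated cells. Mir34b and Mir34c lie 451 bp apart on chromosome 9 (51103562 to 51103645 and 51103034 to 51103110, minus strand), in an intron of Btg4 but on the opposite strand. Within 100 kb of Mir34c also lie 4833427G06Rik at 1.0 kb, Layn at 25.9 kb, Gm32742 at 27.2 kb and Sik2 at 94.0 kb. Mir34a stands alone on chromosome 4 (150068454 to 150068555, plus strand), in no other annotated gene, with Gpr157 at 18.8 kb, Slc2a5 at 50.7 kb, H6pd at 59.4 kb and Slc2a7 at 80.4 kb.

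In newborn hindbrain, 2 members held nearly all counts of the family. Mir449a led and Mir34c followed. Mir34a and Mir34b were lower, and Mir449c and Mir449b were near the limit of detection. Levels are CPM, counts scaled to the sum of same-strand counts over all microRNA genes, which was 3012320 in pup 3 and 2459757 in pup 1. A read spans a whole mature strand of about the same length in each member, so the counts were not divided by length. How evenly the libraries captured different sequences was not measured. Orders, shares and ratios between genes are therefore those of read counts. In bulk tissue, fewer cells of a type and less RNA per cell cannot be told apart.

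Mir449a had 16455 counts in pup 3 and 12297 in pup 1, or 5463 and 4999 CPM. It was at rank 38 of 1973 genes in pup 3 and rank 44 in pup 1, with a mean of 5231 ± 328 CPM (SD, n = 2). Ranks rest on single-locus counts, so genes whose reads map to several loci rank too low. Mir34c had 11165 counts in pup 3 and 9991 in pup 1, or 3706 and 4062 CPM, at ranks 56 and 52. Its mean was 3884 ± 251 CPM (SD, n = 2). In read counts the ranges of these genes do not overlap, and Mir449a stood above Mir34c in both pups.

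Mir34a, the member with the broad expression, had 1384 counts in pup 3 and 1418 in pup 1, or 459 and 577 CPM (518 ± 82.8, SD, n = 2). Mir34b, the neighbour of Mir34c, had 407 and 326 counts in pups 3 and 1, or 135 and 133 CPM (134 ± 1.82, SD, n = 2). These 2 genes were at mean ranks 136 and 212, and their ranges overlap neither each other nor those of Mir34c and Mir449c. In CPM, Mir34b had the smallest relative spread of the 6, at 1.36% of its mean, against 16.0% for Mir34a. The small spread of Mir34b lies within counting error, whose exact limits were 122.3 to 148.9 CPM in pup 3 and 118.5 to 147.7 CPM in pup 1. The order of spreads also depends on scaling. With the TMM scaling used for folds further on, Mir449a had a smaller log2 fold (0.04) than Mir34b (-0.06).

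Mir449c had 13 counts in pup 3 and 16 in pup 1, which is 4.32 CPM (exact 95% interval 2.30 to 7.38) and 6.51 CPM (3.72 to 10.6). Mir449b had 7 and 11 counts in pups 3 and 1, which is 2.32 CPM (0.934 to 4.79) and 4.47 CPM (2.23 to 8.002). Their ranges overlap, so the order of these 2 genes is not resolved by the spread between pups. All of these counts exceed the 3 counts that a count of 0 allows, 0.996 CPM in pup 3 and 1.22 CPM in pup 1. The interval of Mir449b in pup 3 reaches below that limit, to 0.934 CPM. The intervals are Clopper-Pearson intervals and cover counting error only, since reads carry no molecular identifiers.

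**Figure D1:**
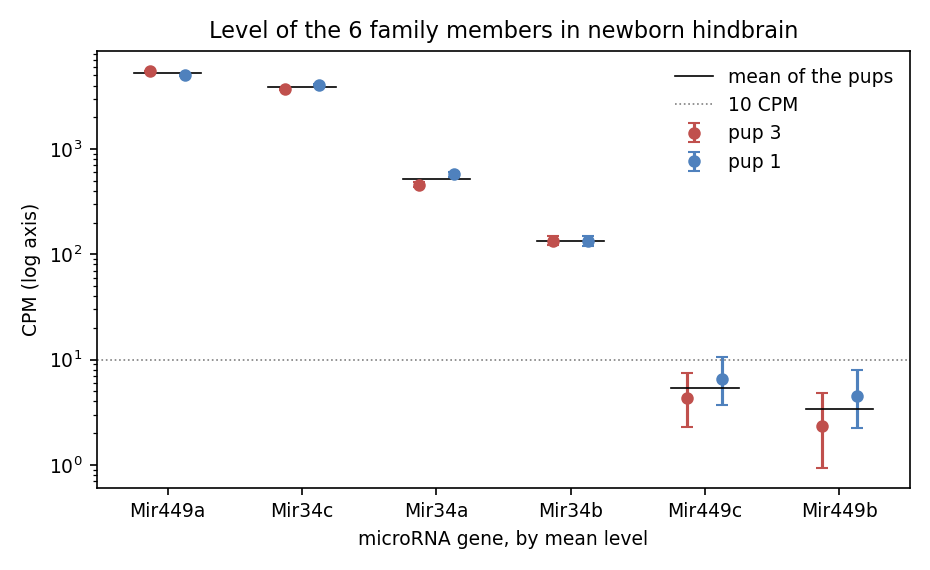
CPM of each member (log axis) in pup 3 (red, left) and pup 1 (blue, right), with exact 95% intervals for counting error, and the mean of the pups as a bar. Mir449a at 5463 and 4999 CPM and Mir34c at 3706 and 4062 CPM stand above the rest, and Mir449c and Mir449b lie below 10 CPM.

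Of the 6 members, 4 reached 10 CPM in both pups, as 306 of the 1973 genes did. The other members, Mir449b and Mir449c, had counts in both libraries, and 699 genes had a count in at least one library. Dividing the mean level by the length of the annotated precursor left the order of all 6 members as it was, and each pup alone gave the same order.

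**Figure D2:**
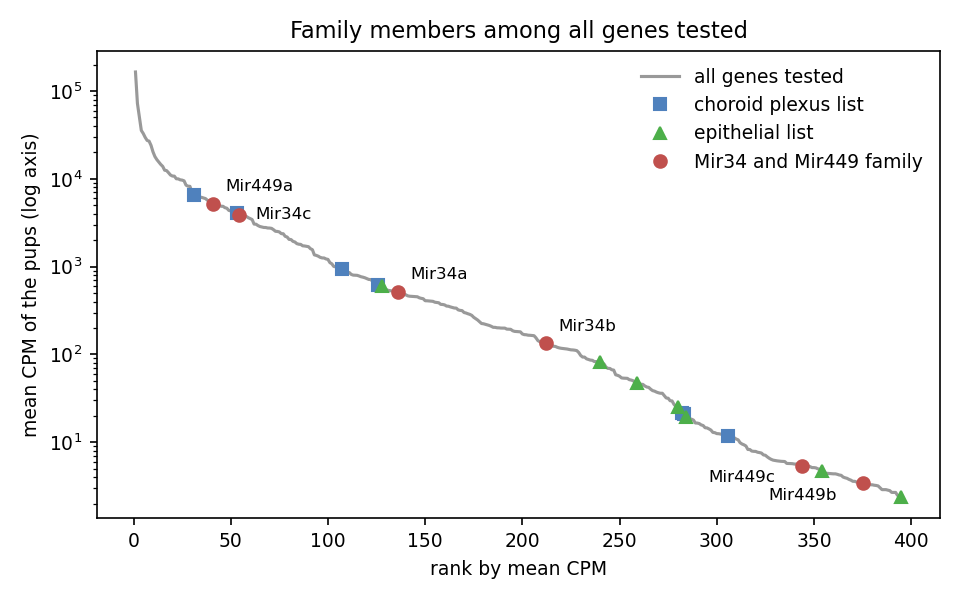
Mean CPM of the pups (log axis) against rank for the 395 genes that reached 10 counts in a library, with the family in red, the choroid plexus list in blue and the epithelial list in green. Mir449a at rank 41 and Mir34c at rank 54 lie near the leading choroid plexus genes, and Mir449c and Mir449b lie at ranks 344 and 375.

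Together the 6 genes held a nearly equal share of the plain totals of both libraries, while the make-up of that share differed. The exact limits given here cover counting error only and not the spread between pups. With the TMM scaling used for folds further on, the summed family was lower in pup 3 (log2 fold -0.09, counting interval -0.11 to -0.06). The family took 0.977% of same-strand reads in pup 3 (95% exact limits 0.966% and 0.988%) and 0.978% in pup 1 (0.966% to 0.991%), from 29431 and 24059 counts. Mir449a made up 55.9% of the family's counts in pup 3 (95% exact limits 55.3% and 56.5%) and 51.1% in pup 1 (50.5% to 51.8%). Mir34c made up 37.9% in pup 3 (37.4% to 38.5%) and 41.5% in pup 1 (40.9% to 42.2%). Mir34a made up 4.70% in pup 3 and 5.89% in pup 1. Mir34b held 1.38% and 1.36% of the family in pups 3 and 1, Mir449c 0.0442% and 0.0665%, and Mir449b 0.0238% and 0.0457%.

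**Figure D3:**
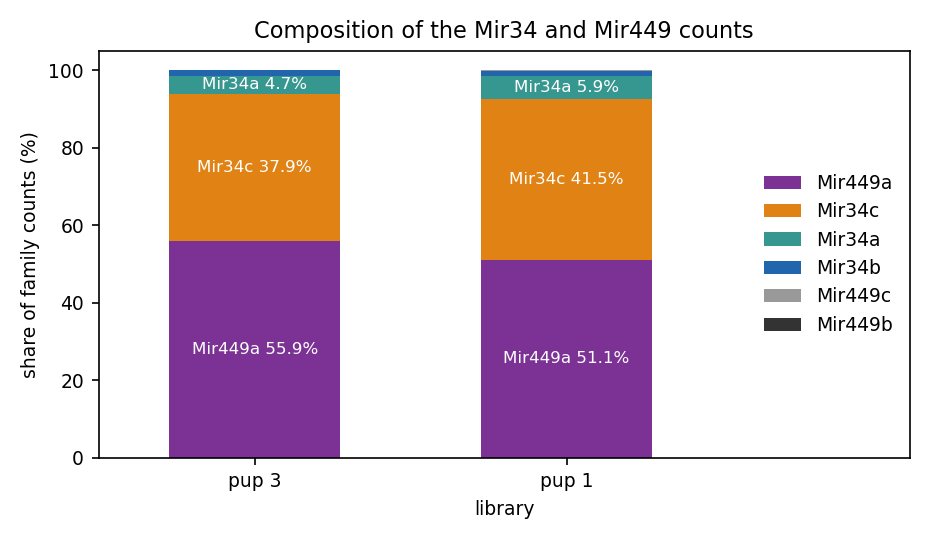
Share of each member in the family's counts (%) in pup 3 (left) and pup 1 (right), stacked from Mir449a at the bottom. Mir449a takes 55.9% in pup 3 and 51.1% in pup 1, and Mir34c 37.9% and 41.5%.

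By locus, the Mir449 genes on chromosome 13 held 0.547% of same-strand counts in pup 3 and 0.501% in pup 1 (mean 0.524% ± 0.0325, SD, n = 2). Mir34b and Mir34c on chromosome 9 held 0.384% and 0.419% (0.402% ± 0.0249), and Mir34a on chromosome 4 held 0.0459% and 0.0577% (0.0518% ± 0.00828), each in pup 3 and pup 1.

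Within a locus the members had very different counts. Mir34c exceeded Mir34b 27.4-fold in pup 3 (interval for counting error 24.8 to 30.4) and 30.6-fold in pup 1 (27.4 to 34.3). The gap was wider in the Cdc20b intron, where Mir449a exceeded Mir449c 1270-fold in pup 3 (740 to 2380) and 769-fold in pup 1 (473 to 1350). Mir449b lies 35 bp before Mir449a, which exceeded it 2350-fold in pup 3 (1140 to 5850) and 1120-fold in pup 1 (625 to 2240). Mir449c and Mir449b had a ratio of 1.86 in pup 3 (0.689 to 5.50) and 1.45 in pup 1 (0.634 to 3.47), both intervals including equal counts.

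The hairpins of the most and a far less abundant Mir449 gene are shown because their counts differ so much at one locus. Capitals mark the mature strands listed in RefSeq.
Mir449a, chr13:113037534-113037624, plus strand, GRCm38.p6: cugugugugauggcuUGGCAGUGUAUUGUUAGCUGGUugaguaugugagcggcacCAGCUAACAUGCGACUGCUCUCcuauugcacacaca
Mir449c, chr13:113035983-113036091, plus strand, GRCm38.p6: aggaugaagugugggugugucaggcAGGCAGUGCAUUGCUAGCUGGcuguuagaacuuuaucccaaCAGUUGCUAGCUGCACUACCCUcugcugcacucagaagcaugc
Both hairpins carry GGCAGUG once in the 5′ strand, starting at base 17 of Mir449a and base 27 of Mir449c, and their longest shared stretch was 7 nt. The precursors have 50.5% and 52.3% GC. Counts are per precursor, so the 5′ and 3′ strands cannot be told apart in them.

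To place these gaps, all same-strand pairs of genes within 10 kb were listed, keeping genes that reached 10 counts in a library, a description chosen after the values were seen. There were 367 such pairs of 163 genes, which share genes and are not independent, with a median ratio of mean levels of 8.17-fold. Mir449a with Mir449b had the 4th and Mir449a with Mir449c the 7th largest ratio of the 367, Mir34c with Mir34b the 100th and Mir449c with Mir449b the 325th.

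**Figure D4:**
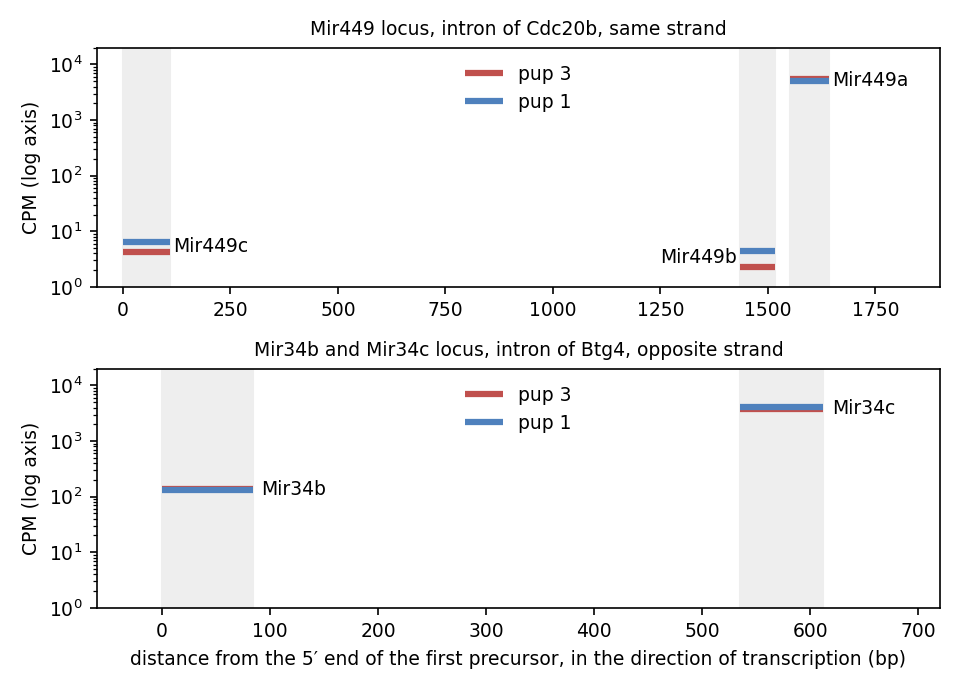
CPM (log axis) of the members at the Mir449 locus (top) and the Mir34b and Mir34c locus (bottom) against distance in bp from the 5′ end of the first precursor; grey bands mark precursors, red bars pup 3 and blue bars pup 1. Mir449a and Mir34c, the last precursor of each locus, hold most of its counts.

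The ratios within a locus were set against each other between the pups, because a ratio of 2 genes of one library does not depend on scaling. None of the 4 ratios passed the test of a difference (Fisher's exact test, two-sided, 0 of 4 pairs at an unadjusted p under 0.05). For Mir34c to Mir34b the ratio in pup 3 was 0.90 of that in pup 1 (exact p = 0.153, adjusted p = 0.256 over the 4 pairs). For Mir449a to Mir449c it was 1.65 times that in pup 1 (exact p = 0.192, adjusted p = 0.256), with at most 16 counts of Mir449c behind it. For Mir449a to Mir449b it was 2.1 times that in pup 1 (Fisher's exact p = 0.152, adjusted p = 0.256), on 7 and 11 counts of Mir449b. At such counts the test could miss a sizeable change. Among the 367 same-strand pairs, the change of the ratio ranked 12th for Mir449a with Mir449b, 46th for Mir449a with Mir449c, 158th for Mir449c with Mir449b and 254th for Mir34c with Mir34b. Mir449b entered these pairs through its 11 counts in pup 1 only, which favours a change in the direction seen. Counting error is large at the counts of Mir449b and Mir449c, so the ranks of their pairs say little. Between loci, where no test was planned, Mir449a to Mir34c was 1.47 in pup 3 (counting interval 1.44 to 1.51) and 1.23 in pup 1 (1.20 to 1.26), so these intervals do not overlap. The log2 folds between the pups of Mir449a and Mir34c lay 0.26 apart. The median difference over all 25425 pairs of genes above 100 CPM in both libraries was also 0.26, and 49.8% of them differed by more.

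The level of each gene was then compared between the pups, pup 3 over pup 1, with an exact binomial test given totals scaled by TMM (trimmed mean of M-values, edgeR) and Benjamini-Hochberg adjustment over the 395 genes that reached 10 counts in a library. All 6 members passed that filter. The test compares these libraries beyond counting error, with no replicate on either side, and says nothing of a condition. Of the 6 members, 1 was higher in pup 3, 2 were lower and 3 did not pass. Of all genes tested 45.8% were called, 22.5% as higher and 23.3% as lower in pup 3. The members' share is close to that background. In the range above 100 CPM in both pups, 66.8% of genes were called.

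Mir34a was lower in pup 3, at 0.75 of its level in pup 1 (log2 fold -0.41, counting interval -0.52 to -0.30, adjusted exact binomial p = 2.36e-13). Mir34c was at 0.86 of its level in pup 1 (log2 fold -0.22, interval -0.26 to -0.18, adjusted exact binomial p = 1.31e-26). Mir449a was at 1.03 times its level in pup 1 (log2 fold 0.04, interval 0.01 to 0.08, adjusted exact binomial p = 0.0255). That last call depends on the scaling. With TMM factors from genes that reached 10 counts in a single library, a choice tried after seeing the data, the log2 fold of Mir449a was 0.00 (adjusted exact binomial p = 1.0). With plain totals it was 0.13, and over all alternatives its adjusted p ran from 4.3e-13 to 1.0.

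Mir34b, Mir449c and Mir449b did not pass, with log2 folds of -0.06 (interval -0.27 to 0.16), -0.65 (-1.85 to 0.47) and -0.97 (-2.63 to 0.47). The fold of Mir34b changes sign with plain totals, to 0.03. Mir449b reached the minimum of 10 counts in pup 1 only, so its passing the filter favours a negative fold. Over the 4 members with at least 100 CPM, the median size of the log2 fold was 0.14, against 0.18 over all 226 such genes.

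The folds were also set against the spread between pups. Both libraries taken as replicates gave a common biological coefficient of variation of 16.6% over 361 genes (edgeR), which makes the expected SD of a log2 fold 0.34. In units of that SD, Mir34a lay at -1.21, Mir34c at -0.64, Mir34b at -0.17 and Mir449a at 0.13. Mir449b and Mir449c lay at -2.87 and -1.93, but this SD leaves out counting error, which is large at their 7 to 16 counts. An edgeR negative binomial exact test with that dispersion called 0 of 6 members, with 0 of 6 at an unadjusted p under 0.05, and called 0.506% of all 395 genes. The dispersion came from the same 2 libraries that were compared, so few calls could result, and this count says nothing about which genes differ. Of the 226 genes above 100 CPM in both libraries, 22 had a lower fold than Mir34a and 48 a lower fold than Mir34c.

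**Figure D5:**
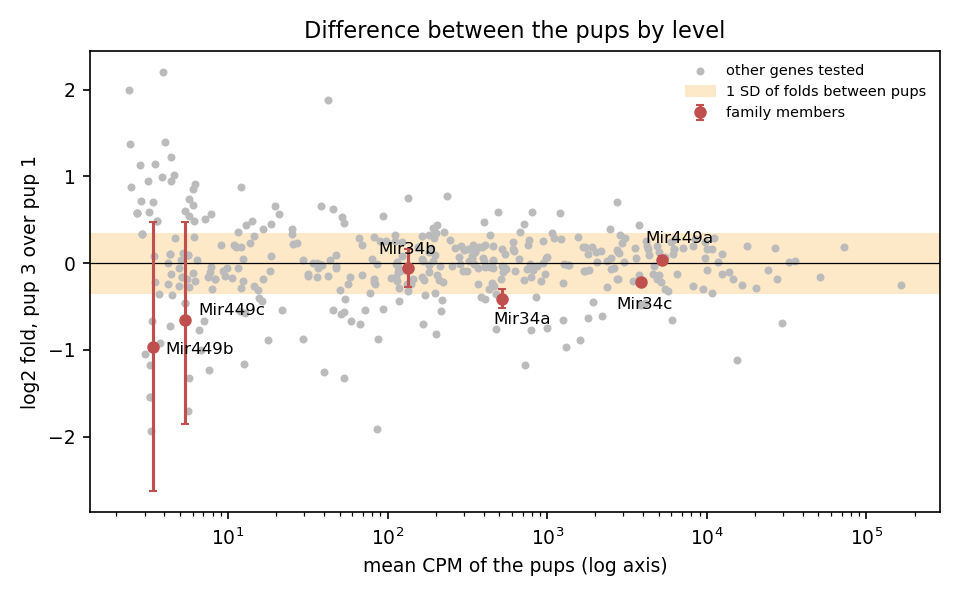
Log2 fold of pup 3 over pup 1 against mean CPM (log axis) for the 395 genes tested (grey) and the 6 members (red, with 95% counting intervals); the band marks 1 SD of folds between pups, 0.34. Mir34b, Mir34c and Mir449a lie within the band, Mir34a at -0.41 lies just below it, and the intervals of Mir449b and Mir449c span it.

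Genes with the most similar pair of levels were found by distance in log2(CPM + 1) over the 2 pups, among 222 other genes above 100 CPM in both. Nearest to Mir449a were Mir21a, with 5738 CPM in pup 3 and 5164 CPM in pup 1 (distance 0.09), and Mir381 of the imprinted Dlk1-Dio3 region (0.11). Nearest to Mir34c were Mir107 (0.08) and Mir139 (0.10), and nearest to Mir34a were Mir328 (0.07) and Mir9-3 (0.16). With 2 libraries this likeness is one of level in single-locus counts and says little else.

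Choroid plexus is another ciliated epithelium of the ventricles, and its leading microRNAs were present at levels close to those of Mir449a and Mir34c. Of 8 listed genes, 7 have a row and all 7 had counts, with 1.16% of same-strand counts in pup 3 and 1.27% in pup 1 (mean 1.22% ± 0.0777, SD, n = 2). Mir1298, encoded within the X-linked gene Htr2c, led with 6405 CPM in pup 3 and 6587 CPM in pup 1, and Mir204, a microRNA known from choroid plexus and retinal pigment epithelium, had 3550 and 4614 CPM. By the exact binomial test 1 of the 7 was higher in pup 3, 2 were lower (Mir1298 at log2 fold -0.12 and Mir204 at -0.46) and 4 did not pass, with 45.8% of all genes tested called. The sum of this list had a log2 fold of -0.21 in pup 3 over pup 1, and that of the Mir34 and Mir449 family one of -0.09. The listed genes did not move together, and Mir1298 and Mir204 dominate the sum. Mir1264, the gene called higher, was at 0.14. Among those not passing, Mir1912 was at 0.56, Mir764 at -0.54 and Mir211 at -0.55, and Mir448 hardly differed. The part of choroid plexus content in the folds of the family was not tested.

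Summed over the list, markers of other epithelia were scarcer, while single genes of the lists overlapped in level. The epithelial list, the Mir200 family with Mir203 and Mir205, held 0.0863% of same-strand counts in pup 3 and 0.0714% in pup 1. All 7 genes had counts, and 5 reached 10 CPM in both pups. Below that were Mir200a, with 16 counts in pup 3 and 10 in pup 1, and Mir141, with 12 and 2. Mir203, known from skin, led with 658 CPM in pup 3 and 555 CPM in pup 1, and Mir429 of the Mir200 family had 93.0 and 71.2 CPM. By the exact binomial test 1 of 7, Mir203, was higher in pup 3 (log2 fold 0.16), and 6 did not pass, against 22.5% of all genes tested called higher.

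The label of the tissue was checked on microRNAs. Mir10a and Mir10b, encoded in Hox clusters and known from hindbrain and spinal cord, together held 3.37% of counts in pup 3 and 5.66% in pup 1. Their log2 folds of -0.69 and -1.12 were larger in size than those of Mir34a (-0.41) and Mir34c (-0.22), and the part of tissue position in the folds of the family was not tested. The 3 Mir124a genes had at most 17 counts in either library, and they are known to share their mature sequence, so that reads from it would map to several loci. The levels of Mir9-3 were 433 CPM (pup 3) and 524 CPM (pup 1), Mir9-2 had 5 and 3 counts, and Mir9-1 has no row. These too are single-locus counts, so the levels of the Mir9 genes can be too low. Multi-locus reads were 42.0% of the library in pup 3 and 40.2% in pup 1.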

How the data were processed

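The authors deposited raw read counts per microRNA gene, 1 table for each of 2 libraries, aligned to mm10 with GENCODE M4, per the file listings deposited with them. The aligner is not given in the sources used here. The columns have no header: the layout is that of a counter of single-locus reads, and the second count column was taken as counts on the strand of the gene. The 4 summary rows without a gene did not enter totals. In pup 3, unmapped reads were 12.4% and multimapped reads 42.0% of all 7175976 reads, and in pup 1 13.7% and 40.2% of 5812558.

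Symbols, positions and precursors came from GENCODE M21 (1894 of 1973 rows matched), mature sequences from RefSeq (GRCm38.p6). CPM use same-strand totals. Folds use TMM factors (edgeR 4.0.16, R 4.3.3) from genes that reached 10 counts in each library and a prior of 0.5 counts; binomial and Fisher tests used scipy 1.17.1. Alternatives were DESeq2 1.42.0 size factors, plain totals, other filters, either-strand counts, a GC correction and a negative binomial test. A quasi-likelihood fit was impossible with 1 library per side.

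The members and lists were chosen with earlier results of these data known. Named beside the members are the 2 most abundant genes of each list, the 2 nearest genes in level to the leading member of each locus, and protein-coding genes within 100 kb of a member. Further genes of the choroid plexus, epithelial and p53-responsive lists are named for their folds or their low counts. The Mir10, Mir124a and Mir9 genes are named for the tissue check.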

Additional observations from a re-analysis of the deposited data

Results flagged for a closer look

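Multi-locus reads, which no comparison above uses, were 42.0% of the library in pup 3 and 40.2% in pup 1. None of the 6 family precursors shares 20 nt with another microRNA locus. At the family's rows the opposite-strand column held 0 counts in pup 3 and 1 count in pup 1, at Mir34b.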

How the results depend on the processing

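The number of members at 10 CPM, 4, and the order of all 6 members held under every alternative run for them. The family's share of counts was 0.978% and moved with its denominator, to 0.412% over all reads, 1.90% without the 10 most abundant genes and 0.949% in the either-strand column. Leaving out a pup gave 0.977% to 0.978%. The count of 3 members called ranged from 2 to 3 over scalings, filters and GC correction, and fell to 0 in the negative binomial test, which called 2 of 395 genes where the binomial test called 181 and whose dispersion came from the same 2 libraries. TMM moved log2 folds by -0.08 relative to plain totals and DESeq2 size factors by -0.07. TMM over genes with 10 counts in either library, added after seeing the data, moved them by -0.13, with the split of called genes at 76 higher and 105 lower in pup 3, against 89 and 92; plain totals gave 115 and 76. Mir34a and Mir34c stayed lower in pup 3 and past the threshold under each of these scalings. No fold or ratio test is left when a pup is left out. No paired analysis was possible because there is only 1 group. Depth limits Mir449b and Mir449c, with 7 to 16 counts per library.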

Other observations

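Mir34a is known as a p53 target, and other microRNAs described as p53-responsive were also present. All 9 listed genes had counts and 7 reached 10 CPM in both pups, with 1.86% of same-strand counts in pup 3 and 1.68% in pup 1. Near the limit of detection were Mir215, with 7 counts in pup 3 and 4 in pup 1, and Mir194-1, with 1 and 4. Mir143, a smooth muscle microRNA, led with 9520 CPM in pup 3 and 7422 CPM in pup 1, and Mir107, in an intron of a pantothenate kinase gene, had 3594 and 3878 CPM. By the exact binomial test, 2 of 7 tested genes were higher in pup 3, 2 were lower and 3 did not pass, with 45.8% of all genes tested called.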
